A study of Mus musculus with 11 samples.

Results

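The immunity-related GTPases (IRGs) are a family of interferon-inducible proteins, and 10 of their genes were followed here, mouse by mouse, in the skin of neonatal mice that had lost regulatory T cells (Tregs). The genes were chosen by name, as the interferon-inducible IRG members Irgm1, Irgm2, Igtp, Iigp1, Ifi47, Tgtp1, Tgtp2, Gm4841, Gm4951 and Gm12250. They made up 10 of the 49315 gene rows of the count table, and all 10 were among the 18375 genes that passed the expression filter and were tested. Bulk RNA-seq had been done on whole skin of 11 mice on a C57BL/6J background. In Foxp3-DTR mice the diphtheria toxin (DT) receptor sits, with a GFP tag, in the Foxp3 locus, so that DT kills Foxp3+ cells. The paper describes the PBS controls of its depletion experiment as Foxp3-DTR mice, and all 11 mice, the control included, were taken to carry this allele. Control mice (PBS, n = 2) received PBS without toxin. ΔETreg mice (EarlyDT, n = 3) received 30 ng of DT per g of body weight on postnatal day 6 (P6) and P8 and were harvested on P9. ΔLTreg mice (LateDT, n = 3) received the same dose on P10 and P12 and were harvested on P13, and ΔTreg mice (FullDT, n = 3) were dosed on P6, P8, P10 and P12 and also harvested on P13. The labels give no harvest day for the control mice, so age and treatment cannot be told apart in comparisons with control or between ΔETreg and the other depleted groups. The paper describes its comparisons with control as age-matched, on P9 and on P13. Which control library was of which age, and whether the 2 were of the same age, is not given. Mice of both sexes were used, and the sex of each is not given in the labels. Each library was taken as 1 mouse. The labels name no animals or litters, so the p-values measure the spread between these libraries.

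IRG proteins are made in low amounts in most resting cells and are strongly induced by interferon-γ and, to a lesser degree, by type I interferons. The effector IRGs load onto the membrane of vacuoles that hold intracellular parasites and bacteria and break them open, and the autophagy conjugation machinery is needed to place them there. The regulatory IRGs, Irgm1, Irgm2 and Igtp (also called Irgm3), sit on the cell's own membranes and hold the effectors in an inactive state, which protects those membranes. The promoters of many interferon-γ target genes hold GAS elements and ISRE elements, and the transcription factor IRF1 binds the latter.

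The upstream sequences are shown because all 10 members rose in ΔTreg skin and are known interferon targets. RefSeq promoters on GRCm38.p6 were at hand for 7 of the 10 members, all of them on chromosome 11, and the 250 bases before each start were searched. The letters GAAANNGAA, an ISRE core, were looked for on both strands, and TTCNNNGAA, a GAS core, reads the same on both strands. An ISRE core lay in 6 of the 7 promoters, against 7.1% of the 32851 promoters of all genes, and a GAS core in 5 of 7, against 7.0%. Ifi47 held neither in this window, and Irgm1 held 2 overlapping ISRE cores and no GAS core. In Igtp, Irgm2, Tgtp1 and Tgtp2 the GAS core came first and was followed after 2 bases by the ISRE core. This arrangement was noticed in these sequences and then counted over all genes. It lay in 7 promoters (0.0213%), of which 4 were those of these members, and that of the neighbouring IRG-like gene Gm12185 was also among the 7. Gm12185 lies on the same strand as Tgtp1, and its GENCODE start (48992226) is close to the RefSeq start of Tgtp1 (48992246). The matches of Gm12185 and Tgtp1 may therefore be 1 and the same stretch. The 250 bases were 68.1% identical between Irgm2 and Igtp and 61.5% between Tgtp1 and Tgtp2, against 42.1% to 51.5% for the other pairs. The matches in these members may therefore not be independent. In Igtp the ISRE core covered positions -34 to -26 from the start, and in Tgtp1 positions -77 to -69. Gm12250 had 2 ISRE cores on the reverse strand, on either side of its GAS core. The last 120 bases before the start follow for these 5 genes, read 5′ to 3′ on the gene's own strand, with ISRE and GAS cores in capitals. They lie at chr11:58199436-58199555 (+ strand) for Igtp, chr11:58214857-58214976 (+) for Irgm2, chr11:48992247-48992366 (- strand) for Tgtp1, chr11:49064213-49064332 (-) for Tgtp2 and chr11:58183723-58183842 (+) for Gm12250. In the GENCODE annotation 12 of the 120 bases of Tgtp1 are exonic and those of the other 4 genes are not. For Irgm1, whose bases are not printed, all 120 are exonic in GENCODE. The RefSeq start can lie inside the GENCODE gene, as for Irgm2 (58214977, against 58199618 in GENCODE) and Tgtp1 (48992246, against 48994172). A match describes the letters and does not show that a factor bound there.
Igtp: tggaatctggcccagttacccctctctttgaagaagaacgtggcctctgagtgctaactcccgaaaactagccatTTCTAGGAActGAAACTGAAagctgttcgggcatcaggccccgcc
Irgm2: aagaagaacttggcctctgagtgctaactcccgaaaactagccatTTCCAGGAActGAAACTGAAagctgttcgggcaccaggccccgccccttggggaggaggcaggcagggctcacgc
Tgtp1: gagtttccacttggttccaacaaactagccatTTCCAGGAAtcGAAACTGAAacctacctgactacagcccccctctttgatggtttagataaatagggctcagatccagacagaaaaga
Tgtp2: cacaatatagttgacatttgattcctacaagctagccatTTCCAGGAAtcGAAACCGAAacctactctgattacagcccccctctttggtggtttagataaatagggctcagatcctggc
Gm12250: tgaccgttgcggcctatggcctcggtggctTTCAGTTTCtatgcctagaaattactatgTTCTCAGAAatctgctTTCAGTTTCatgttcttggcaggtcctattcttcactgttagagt

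Each library held between 23377571 and 34159435 counted reads. Levels are given as CPM, read counts scaled for the effective size of each library, and as CPM per kb of annotated exon where genes are compared with each other. Keratinocyte markers summed to 10600 to 14700 CPM in every mouse, although single keratins were called against control: Krt1 was lower in ΔTreg (log2 fold change -1.93, edgeR adjusted p = 0.000664) and ΔLTreg skin (-1.50, edgeR adjusted p = 0.0141), and in ΔTreg skin Krt10 was lower (-0.66) and Krt14 higher (0.40). Foxp3 itself had only 9 to 23 counts per library, with 0.558 and 0.7 CPM in control, 0.348 to 0.526 CPM in ΔETreg, 0.407 to 0.685 CPM in ΔLTreg and 0.386 to 0.564 CPM in ΔTreg mice, so the ΔLTreg and ΔTreg ranges overlapped that of control skin. The skeletal muscle markers summed to 1140 to 3700 CPM in ΔLTreg mice and 987 to 1060 CPM in control mice, and ranged from 803 to 1350 CPM in ΔETreg and from 959 to 1830 CPM in ΔTreg mice. Of these markers Myh4, a fast myosin heavy chain, was called higher than control in ΔLTreg (log2 fold change 5.53) and ΔTreg skin (3.46). In bulk skin, a change in the number of cells of a type and a change in RNA per cell cannot be told apart.

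The 10 genes lie in 3 clusters (GRCm38 coordinates). The first spans 235.0 kb of chromosome 11 (48861968 to 49096974) and holds Irgm1, Tgtp1, Tgtp2 and Ifi47. The second spans 35.0 kb of the same chromosome (58187739 to 58222782) and holds Gm12250, Igtp and Irgm2, with 162 exonic bases annotated to both Igtp and Irgm2. The third spans 180.6 kb of chromosome 18 (60212080 to 60392634) and holds Gm4951, Gm4841 and Iigp1. Gm12250, known as Irgb10, is annotated as a processed pseudogene in GENCODE and as a protein-coding gene in RefSeq.

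**Figure D1:**
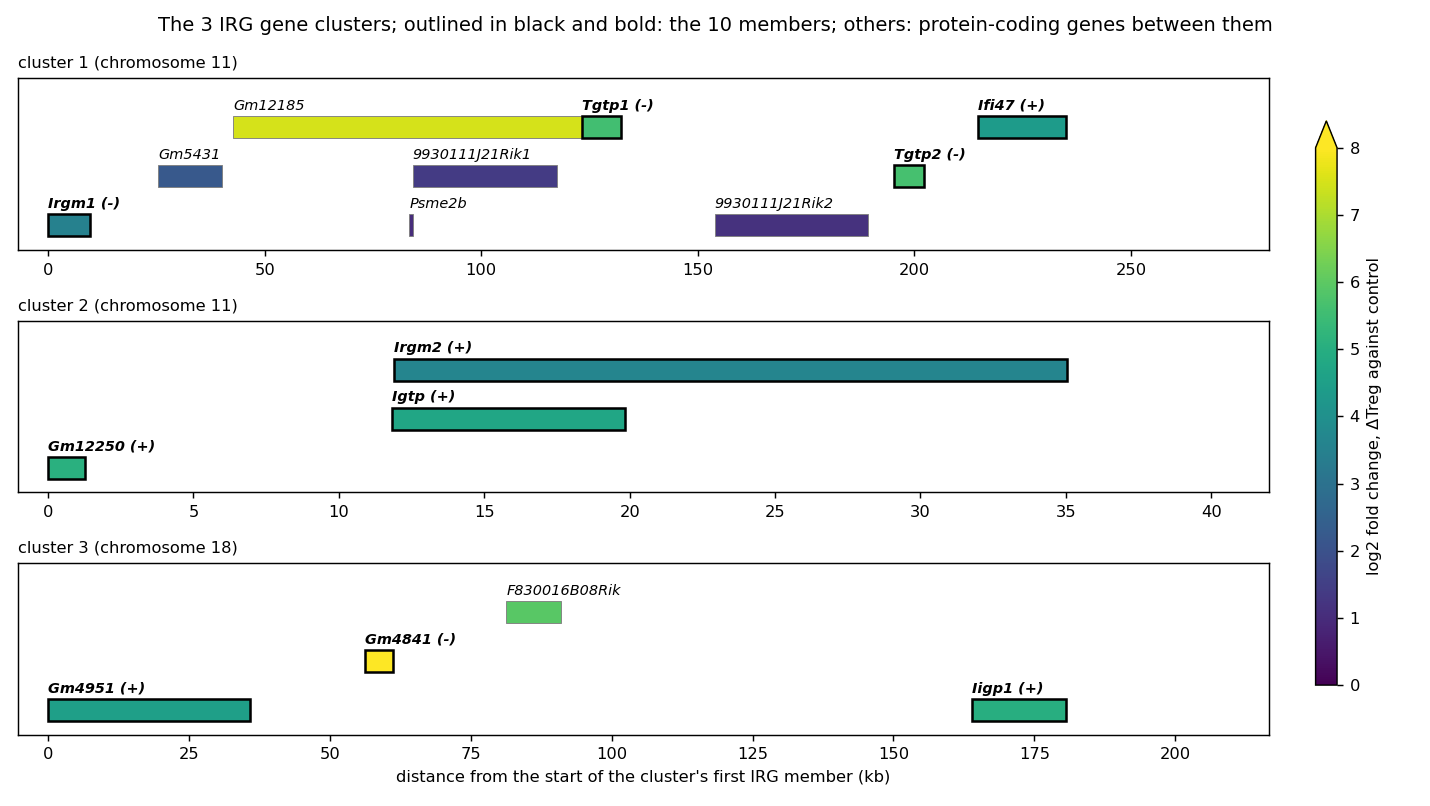
Position of the 10 IRG members (bold, black outline, strand in brackets) and of the protein-coding genes between them, with the distance in kb from the first member on the x axis of each cluster. Colour gives the log2 fold change in ΔTreg against control skin and stops at 8. On that scale Irgm1 rose by 3.49, the least of the 10 members, and Psme2b, a gene between members, by 1.02. Gm12185, with only 1 and 2 control reads, has the highest fitted value of the 6 genes between members.

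Tgtp1 and Tgtp2 are near copies. Their coding sequences differed at 4 of 1248 bases (99.7% identical), and 64.9% of the 150-base stretches of Tgtp1 transcripts and 68.4% of those of Tgtp2 occurred in another gene too. Only reads with a unique place were counted, so the levels of both genes are understated and the division between them is uncertain. Over the other 8 members, at most 0.7% of such stretches (those of Igtp) were shared. Ifi47 shares 111 exonic bases with Olfr56 and 106 with the antisense Gm12188, and Tgtp1 shares 223 with Gm12185. Whether counting used strand is not given in the sources used here.

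The 3 regulatory genes were lowest in control and ΔETreg skin and highest in ΔTreg skin. Irgm1, whose protein protects host membranes and is needed for mitochondrial quality control, measured 8.02 and 4.78 CPM in the 2 control mice, 7.28, 6.84 and 7.20 CPM in ΔETreg, 15.1, 22.2 and 10.6 CPM in ΔLTreg, and 81.2, 77.3 and 59.1 CPM in ΔTreg skin. Irgm2 measured 8.83 and 4.94 CPM in control, 7.42, 7.63 and 10.4 CPM in ΔETreg, 19.3, 32.0 and 13.3 CPM in ΔLTreg, and 95.8, 96.5 and 67.5 CPM in ΔTreg mice. For both genes the ΔETreg values lay across or between those of the 2 control mice, while every ΔLTreg value was above control and every ΔTreg value was above ΔLTreg. Igtp measured 5.22 and 2.99 CPM in control, 7.21, 5.36 and 7.41 CPM in ΔETreg, 16.3, 27.3 and 11.1 CPM in ΔLTreg, and 119, 125 and 85.8 CPM in ΔTreg mice. Here no group overlapped the next, although the lowest ΔETreg mouse was only just above the higher control mouse.

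Among the effectors, Iigp1 (Irga6), one of the first IRGs to reach the parasite vacuole, was the member with the most reads. It measured 8.55 and 4.10 CPM in control, 14.9, 11.3 and 19.5 CPM in ΔETreg, 33.5, 53.7 and 25.2 CPM in ΔLTreg, and 216, 226 and 182 CPM in ΔTreg mice, with no overlap between any of the groups. Ifi47 (Irgd) measured 3.26 and 1.55 CPM in control, 3.31, 2.40 and 3.86 CPM in ΔETreg, 6.50, 12.9 and 5.82 CPM in ΔLTreg, and 56.8, 53.2 and 40.0 CPM in ΔTreg mice. Gm12250 (Irgb10), which helps to open bacterial membranes to inflammasome sensors, measured 0.911 and 0.398 CPM in control, 1.15, 0.559 and 0.943 CPM in ΔETreg, 2.18, 4.27 and 1.16 CPM in ΔLTreg, and 25.9, 25.9 and 16.7 CPM in ΔTreg mice. For Ifi47 and Gm12250 the ΔETreg and control mice overlapped, and the lowest ΔLTreg value of Gm12250 was just above the highest ΔETreg value.

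Tgtp1 and Tgtp2 encode almost the same effector (Irgb6), and their values followed each other. Tgtp1 measured 0.630 and 0.319 CPM in control, 2.40, 1.54 and 2.53 CPM in ΔETreg, 4.44, 4.20 and 5.07 CPM in ΔLTreg, and 24.0, 25.8 and 19.5 CPM in ΔTreg mice. Tgtp2 measured 0.841 and 0.359 CPM in control, 3.27, 2.20 and 3.81 CPM in ΔETreg, 6.32, 9.65 and 6.14 CPM in ΔLTreg, and 31.1, 34.7 and 26.6 CPM in ΔTreg mice. All 4 groups were apart for both genes, although the control values rested on few reads, 18 and 8 for Tgtp1 and 24 and 9 for Tgtp2.

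Gm4951 and Gm4841 carry only predicted-gene names, and RefSeq lists them as Ifgga2 and Ifgga3, both relatives of Iigp1. Gm4951, 86.1% identical to Iigp1 over the coding sequence, measured 1.19 and 0.279 CPM in control, 1.43, 0.657 and 1.37 CPM in ΔETreg, 1.88, 4.86 and 1.28 CPM in ΔLTreg, and 18.2, 19.4 and 13 CPM in ΔTreg mice, so that its ΔETreg values overlapped both control and ΔLTreg. Reads on Gm4841 numbered 1 and 0 in control skin. They numbered 3, 5 and 5 in the ΔETreg libraries, 204, 185 and 12 in the ΔLTreg libraries, and 1399, 1098 and 1546 in those of ΔTreg skin. It was therefore nearly silent in control and ΔETreg skin, and ΔLTreg mouse 3 was far below the other 2 mice of its group.

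**Figure D2:**
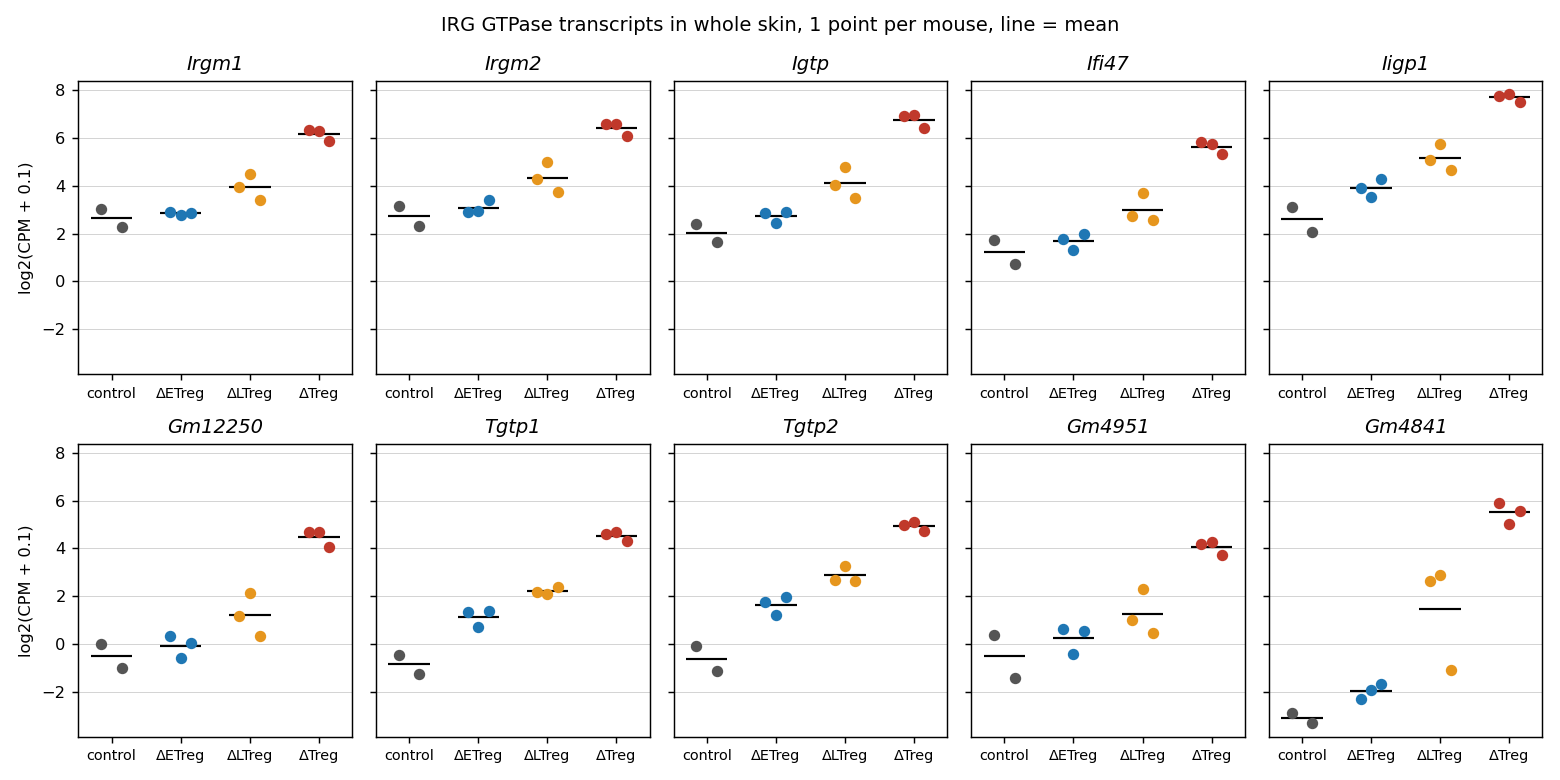
Level of each IRG member in each mouse, as log2(CPM + 0.1) on the y axis, by group on the x axis, with 1 point per mouse and a line at the group mean. The 3 ΔTreg mice are above all others in all 10 panels, and for Gm4841 ΔLTreg mouse 3 (0.376 CPM) sits well below ΔLTreg mice 1 and 2 (6.08 and 7.25 CPM).

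In ΔTreg skin, all 10 members rose against control, with every ΔTreg mouse above both control mice. Tgtp2 rose most among the 9 members with reads in both control mice (log2 fold change 5.64, SE 0.357, edgeR adjusted p = 3.04e-06), followed by Tgtp1 at 47.4-fold, Gm12250 34.0-fold, Iigp1 32.5-fold and Igtp 26.5-fold. Gm4951 rose 22.2-fold and Ifi47 20.5-fold, and the smallest rises were in the regulators Irgm2 (12.5-fold) and Irgm1 (11.3-fold, log2 fold change 3.49, SE 0.307, edgeR adjusted p = 2.51e-05). Leaving out control mouse 1 raised the fold by more than 1.5 times for 6 of these 9 members, with log2 fold changes then of 5.89 (Gm4951), 5.82 (Gm12250), 5.66 (Iigp1), 5.0 (Ifi47), 6.16 (Tgtp1) and 6.41 (Tgtp2), and leaving out control mouse 2 lowered Gm4951 to 3.81. Gm4841 had 4043 reads over the 3 ΔTreg libraries against 1 read over the 2 control libraries, a ratio of 2430 per effective library size (exact 95% interval 436 to 95900, counting error only), and it was 417-fold higher when 3 counts were taken for each control library (0.112 CPM). The adjusted p-values of the 10 ranged from 1.42e-06 to 0.000484. Of all genes tested, 12.1% were called higher in this comparison and 26.8% had every ΔTreg mouse above both control mice, against 10 of 10 members by both measures. The median log2 fold change was 4.88 over the members, also with Gm4841 set against that control level of 3 counts, and -0.006 over all genes.

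ΔTreg skin was also above skin that had lost Tregs in 1 window only. Against ΔLTreg skin, taken at the same age and sharing no control, all 10 members were higher, by 4.05-fold (Irgm2, log2 difference 2.02, SE 0.291) to 10.4-fold (Gm4841, log2 difference 3.37, SE 0.568), with edgeR adjusted p from 1.18e-05 to 0.00199. The next largest difference was in Gm12250, at 9.18-fold. In this comparison 10.7% of all genes were called higher and 19.2% had no overlap between groups, while all 10 members met both. Against ΔETreg skin, which was 4 days younger, all 10 were higher, the 9 members other than Gm4841 by log2 differences of 3.33 (Tgtp2) to 4.69 (Gm12250), with background shares of 13.2% called and 23.4% without overlap. The median log2 difference of the members was 2.54 against ΔLTreg and 3.83 against ΔETreg.

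In ΔLTreg skin, 8 of the 10 members rose against control, and all 10 had every ΔLTreg mouse above both control mice. Tgtp2 was at 11.9-fold control (log2 fold change 3.57, SE 0.367, edgeR adjusted p = 0.000767) and Tgtp1 at 9.41-fold, followed by Iigp1 (5.84-fold), Igtp (4.37-fold), Ifi47 (3.41-fold), Irgm2 (3.08-fold) and Irgm1 (2.46-fold, log2 fold change 1.30, SE 0.295, edgeR adjusted p = 0.0339). Gm4841 had 401 reads over the 3 ΔLTreg libraries against 1 over the 2 control libraries (ratio 236, exact 95% interval 42.2 to 9360, counting error only). Its mean rested on ΔLTreg mice 1 and 2, and it was called in 8 of 17 alternative settings, losing its call when 1 of these mice, 1 of the control mice, 1 of the ΔETreg mice or ΔTreg mouse 3 was left out. Gm12250 had a log2 fold change of 1.89 (SE 0.578, edgeR adjusted p = 0.0947) and Gm4951 of 1.78 (SE 0.652, edgeR adjusted p = 0.152), and neither passed the test. Of all genes, 1.86% were called higher and 15.0% had no overlap. The median log2 fold change was 2.01 over the members and 0.004 over all genes. The number of calls depended on the libraries fitted. It was lower without either control mouse, which leaves 1 control library, and the call of Irgm1 was then lost. It was 2 when only the control and ΔLTreg libraries were fitted (Tgtp1 and Tgtp2). Over all genes, calls in either direction fell in that fit too, from 836 of 18375 genes to 154 of 17508. All 10 members were still higher in each of these fits. Irgm1 was called in 12 of 18 alternative settings, and its call was also lost without ΔETreg mouse 2 or 3 or ΔTreg mouse 2, as was that of Ifi47 without ΔTreg mouse 2. Leaving out control mouse 1 also moved the same 6 members as above by more than 1.5 times, up to a log2 fold change of 4.33 for Tgtp2 and 3.20 for Gm4951, and Gm4951 went to 1.13 without control mouse 2 and 1.07 without ΔLTreg mouse 2.

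In ΔETreg skin, no member passed the test against control by edgeR's quasi-likelihood test, although 5 of the 10 (Igtp, Iigp1, Tgtp1, Tgtp2 and Gm4841) had every ΔETreg mouse above both control mice. Among all genes 0.00544% were called higher, which is 1 gene, and 9.35% had no overlap. Before adjustment, 3 members had p under 0.05. Tgtp2 was at 4.98 times control (log2 fold change 2.32, SE 0.393, edgeR adjusted p = 0.359), Tgtp1 at 4.40 times (log2 2.14, SE 0.322, edgeR adjusted p = 0.342) and Iigp1 at 2.37 times (log2 1.25, SE 0.377, edgeR adjusted p = 1.0). DESeq2's Wald test called 2 members, Tgtp1 (adjusted p = 9.61e-06) and Tgtp2 (adjusted p = 5.17e-07), and edgeR without an expression filter called 3, those 2 and Iigp1, so the call for these genes depended on the tool and the filter. Across the other members except Gm4841, which had too few counts for a fold, log2 fold changes ran from 0.14 for Irgm1 to 0.68 for Igtp. Without control mouse 1, Tgtp2 was at a log2 fold change of 3.08, Tgtp1 at 2.73, Gm4951 at 2.01, Iigp1 at 1.88, Gm12250 at 1.13 and Ifi47 at 1.02. Without control mouse 2, the sign turned for Irgm1, Irgm2, Ifi47, Gm4951 and Gm12250, with values of -0.18 (Irgm1) to -0.05 (Ifi47). The median over the members was 0.64, or 0.56 with Gm4841 set against 3 counts per control library, and -0.01 over all genes.

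**Figure D3:**
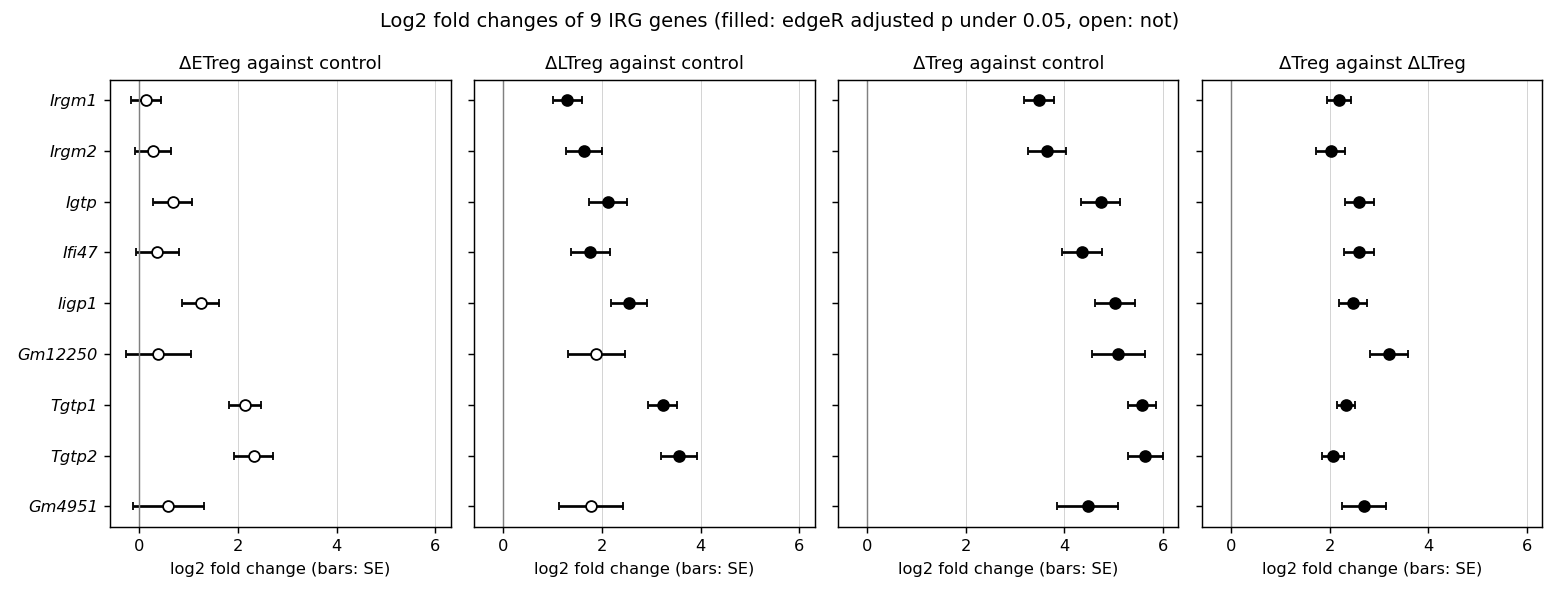
Log2 fold change on the x axis with its SE (bars) for 9 IRG members in 4 comparisons, filled where the edgeR adjusted p was under 0.05. Gm4841 is left out because its control counts were 1 and 0. The first 3 panels share the same 2 control mice, and Tgtp1 and Tgtp2 lie furthest to the right in each of them, at 2.14 and 2.32 in the first.

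The 3 comparisons with control share the same 2 control mice, so a low or high control value shifts all of them together. Control mouse 1 was above control mouse 2 for each of the 9 members with enough counts, by 1.68-fold (Irgm1) to 4.27-fold (Gm4951) with a median of 2.08-fold, while only 5.46% of all genes were more than 1.5-fold higher in control mouse 1. The comparison of ΔETreg with ΔLTreg uses no control mouse. There 8 of the 10 members were lower in ΔETreg, by a log2 difference of -1.10 (Tgtp1, SE 0.203, edgeR adjusted p = 0.0118) to -1.45 (Igtp, SE 0.311, edgeR adjusted p = 0.0222) among the 7 other than Gm4841, which was lower by -4.80 (SE 1.05). Gm4951 (-1.19, SE 0.531, edgeR adjusted p = 0.211) and Gm12250 (-1.50, SE 0.478, edgeR adjusted p = 0.0898) did not pass. For 9 members every ΔETreg mouse was below every ΔLTreg mouse, the exception being Gm4951. Of all genes, 3.12% were called lower in ΔETreg and 13.7% had no overlap in that direction. The calls rested on few mice, with 2 (Tgtp1 and Tgtp2), 1 (Tgtp1) and 3 (Iigp1, Tgtp1 and Tgtp2) left without ΔETreg mouse 1, 2 or 3, 5 without ΔLTreg mouse 2, and 2 when only these 2 groups were fitted, and all differences kept their sign. Calls over all genes, in either direction, fell as well, from 1173 to 573, 353 and 619 without ΔETreg mouse 1, 2 or 3. They numbered 943 without ΔLTreg mouse 2 and 540 when only these 2 groups were fitted. Markers of other cells were called in the same comparison. The NK and cytotoxic genes Prf1 (log2 difference -1.23) and Klrk1 (-0.88), the neutrophil genes S100a9 (-1.42) and S100a8 (-0.66), the muscle genes Myh4 (-5.27) and Ckm (-1.50) and the endothelial gene Pecam1 (-0.25) were lower in ΔETreg skin, and Krt1 (1.28) and Pdgfra (1.22) were higher. None of the 8 T cell and none of the 8 monocyte and macrophage markers were called by edgeR (1 and 3 had an unadjusted p under 0.05). The part of these cells in the IRG differences was not tested.

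Mice of 1 group often differed in the same direction for most members, with exceptions in each depleted group. The summed level of the 10 genes was 37.5 and 19.7 CPM in the control mice, 48.5, 38.7 and 57.3 CPM in ΔETreg, 111, 178 and 80.0 CPM in ΔLTreg, and 728, 716 and 558 CPM in ΔTreg mice. ΔLTreg mouse 2 was above mouse 3 for 9 of 10 members, with a median ratio of 2.31, and by 19.3-fold for Gm4841. Tgtp1 went the other way, at 0.827 of mouse 3's level in mouse 2. The low level of Gm4841 in ΔLTreg mouse 3 had a parallel in IRG-like genes that are no members. Gm12185, with 63, 57 and 14 counts in ΔLTreg mice 1 to 3, and F830016B08Rik, with 321, 228 and 42 counts, were also lowest in mouse 3. ΔETreg mouse 3 was above mouse 2 for all 10 members, whereas ΔETreg mouse 1 was above mouse 3 for only 3 of 9, with ratios of 0.713 (Irgm2) to 1.22 (Gm12250). In ΔTreg mice, mouse 3 was below mouse 1 for all 10 members by a median of 1.38-fold. Mouse 1 was above mouse 2 for 3 of 10 with a median ratio of 0.976, and Gm4841 stood apart there with a ratio of 1.84. Gm4841 was also the exception between ΔTreg mice 2 and 3, at 0.682 against a median of 1.33. Over the 11 libraries, pairwise correlations of log2 CPM between members ran from 0.916 (Irgm1 with Tgtp2) to 0.996 (Igtp with Ifi47), with a median of 0.976, a description that mostly reflects the group differences they share.

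Per kb of exon, Igtp was the most abundant member in every group, with 2.03 ± 0.780 CPM per kb in control (SD, n = 2), 3.29 ± 0.560 in ΔETreg (n = 3), 9.01 ± 4.08 in ΔLTreg (n = 3) and 54.3 ± 10.4 CPM per kb in ΔTreg skin (n = 3). In control skin the order continued with Irgm2 (1.87 ± 0.745), Irgm1 and Iigp1 (1.09 ± 0.539) and Ifi47 (0.973 ± 0.487 CPM per kb), and each of the first 9 members overlapped its neighbour in this order, with only Gm4841 apart. In ΔTreg skin Iigp1 was second (35.7 ± 3.95) followed by Irgm2 (23.5 ± 4.49 CPM per kb). Igtp, Iigp1 and Irgm2 were apart from one another there, whereas Irgm2, Ifi47 (20.2 ± 3.57), Gm12250 (17.9 ± 4.14) and Gm4841 (16.5 ± 4.83 CPM per kb) overlapped each with the next. Irgm1 went from the third place in control skin to the seventh in ΔTreg skin (12.5 ± 2.03 CPM per kb), where it overlapped Gm4841 above it and Tgtp2 below it. These orders depend on the exon length used, all annotated exons of a gene together, with 5823 bases for Iigp1 and 2022 for Igtp. Their coding sequences were of like length (1242 and 1272 bases). In CPM without division by length, Iigp1 was above Igtp in each group mean, with 6.32 against 4.10 in control and 208 against 110 in ΔTreg skin. Gm12250 was scaled by the 1274 bases of its pseudogene model.

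The make-up of the family differed between control and depleted mice. The 3 regulators together held 58.8% and 64.8% of the family's CPM per kb in the control mice, 48.1% to 54.7% in ΔETreg, 47.9% to 49.2% in ΔLTreg and 42.1% to 45.9% in ΔTreg mice. Both control mice were above all 9 depleted mice. Tgtp1 and Tgtp2 together held 4.47% and 3.95% in control, 11.4% to 13.2% in ΔETreg, 8.71% to 16.1% in ΔLTreg and 8.02% to 9.01% in ΔTreg mice, so their share was higher in each depleted mouse than in control and higher in ΔETreg than in ΔTreg mice. These shares do not depend on the scaling between libraries, but they rest on the same exon lengths. Iigp1 went from 12.6% and 13.6% to a range of 16.5% to 20.9% over the depleted mice. Gm4841 held at most 0.537% in control and ΔETreg mice and at least 5.21% in ΔTreg mice. The shares were chosen for display after the values were seen and were not tested.

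**Figure D4:**
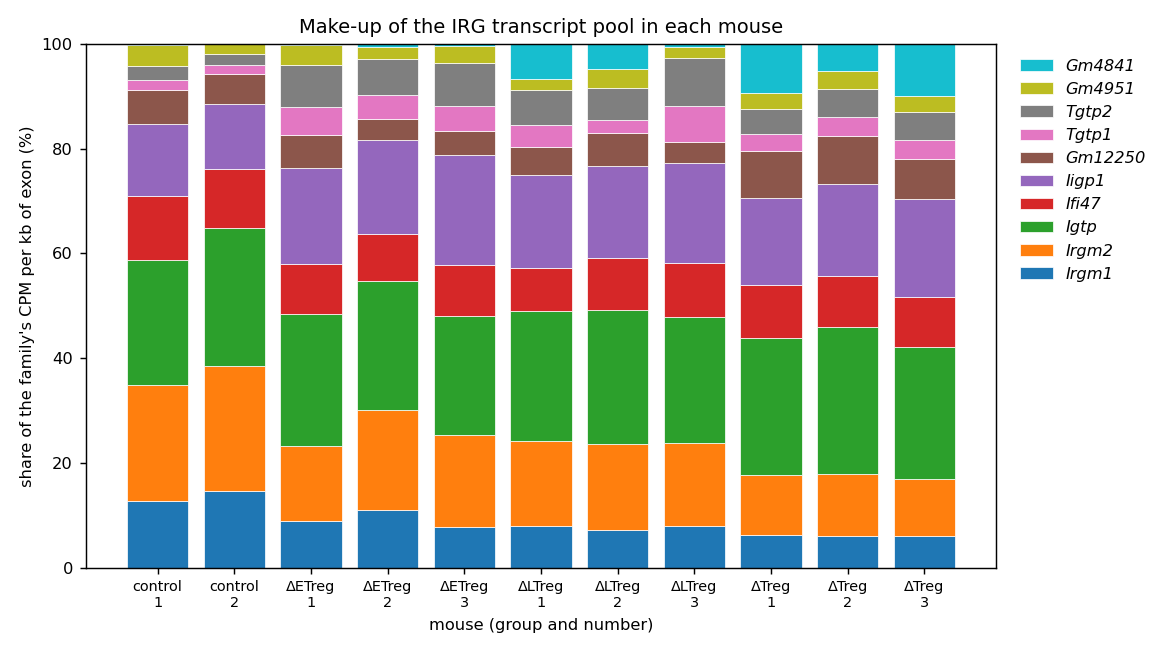
Share of each IRG member in the family's summed CPM per kb of exon (y axis, percent) in each of the 11 mice (x axis). The green, orange and blue blocks at the bottom are the regulators Igtp, Irgm2 and Irgm1, which fill 58.8% and 64.8% of the control bars and 42.1% to 45.9% of the ΔTreg bars, and the pink and grey blocks of Tgtp1 and Tgtp2 are thinnest in the control mice (4.47% and 3.95%).

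Most genes that carry the interferon-γ signal rose in ΔTreg skin, and few did in ΔLTreg skin. Of 16 pathway genes, 15 rose in ΔTreg skin against control, 2 in ΔLTreg skin and none in ΔETreg skin by edgeR (0 also at an unadjusted p under 0.05), with medians of 1.73, 0.12 and -0.03 on the log2 scale. The shares called higher over all genes were 12.1%, 1.86% and 0.00544%. Reads on Ifng, the ligand, numbered 3 and 0 in control libraries, 3, 0 and 0 after early depletion, 1, 4 and 0 after late depletion, and 54, 82 and 57 where both windows were covered, so it was at the limit of detection in all but the ΔTreg mice. Its receptor genes rose little in ΔTreg skin, Ifngr1 by 0.76 (SE 0.0870) and Ifngr2 by 0.38 (SE 0.0578) on the log2 scale, and in ΔLTreg skin they had values of 0.07 and -0.05. The genes of IRF1 and of NLRC5, the co-activator of MHC class I genes, were the 2 that rose in ΔLTreg skin, by 1.09 (Irf1, SE 0.252, edgeR adjusted p = 0.0365) and 1.21 (Nlrc5, SE 0.190, edgeR adjusted p = 0.00635), against 3.41 and 3.31 in ΔTreg skin. The feedback inhibitor Socs1 rose by 2.10 (SE 0.188) in ΔTreg skin and had a value of -0.07 (SE 0.187) in ΔLTreg skin. The 2 calls in ΔLTreg skin went down to 1 when either control mouse, ΔETreg mouse 1 or 2, or ΔTreg mouse 1 or 2 was left out, and to 0 when only the control and ΔLTreg libraries were fitted.

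Of 23 genes for type I and III interferons and their receptors, only 5 receptor and kinase genes passed the expression filter. The ligand genes had at most 3 counts in every control, ΔETreg and ΔTreg library and at most 4 in ΔLTreg libraries. Ifnar2, a chain of the type I receptor, rose by 0.60 (SE 0.118, edgeR adjusted p = 0.00437) in ΔTreg skin, and Tyk2, its kinase, had a value of 0.26 (SE 0.0859, edgeR adjusted p = 0.0541). None of the 5 passed in ΔLTreg or ΔETreg skin by edgeR (1 and 0 had an unadjusted p under 0.05). The genes listed for the autophagy conjugation machinery, with ubiquitin-linked genes such as Trim21 among them, mostly moved far less than the IRGs themselves. Of 16, 3 rose in ΔTreg skin, which is not far from the 12.1% of all genes called higher against control there. The 3 were Trim21 by 1.92 (SE 0.226), Atg16l1, part of the conjugation complex, by 0.27 (SE 0.0559) and Gabarapl1, a ubiquitin-like tag, by 0.19 (SE 0.0476). The median of the 16 was 0.02. None passed in ΔLTreg or ΔETreg skin by edgeR, where 4 and 2 had an unadjusted p under 0.05. Of these genes, Trim21, a ubiquitin ligase, is itself an interferon target.

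Genes outside the chosen set but related to IRGs by sequence or name rose as well. Of 7 such genes, 6 rose in ΔTreg skin (all but Irgq, at -0.05, SE 0.0768), 2 in ΔLTreg skin and none in ΔETreg skin by edgeR (0 also at an unadjusted p under 0.05). Over all genes the shares called higher were 12.1%, 1.86% and 0.00544%. Gm12185, which lies between Irgm1 and Tgtp1 and shares exonic bases with Tgtp1, rose in both groups (edgeR adjusted p = 0.0269 in ΔLTreg and 0.000105 in ΔTreg skin). It had 3 reads over the 2 control libraries, 134 over the ΔLTreg and 923 over the ΔTreg libraries, which are ratios to control of 26.3 (exact 95% interval 8.82 to 129, counting error only) and 185 (63.0 to 898). F830016B08Rik, between Gm4841 and Iigp1, rose by 3.37 (SE 0.830, edgeR adjusted p = 0.0457) and 5.91 (SE 0.801). Gm5431, next to Irgm1, rose by 2.19 (SE 0.432) in ΔTreg skin, and had a value of 0.16 (SE 0.482) in ΔLTreg skin. The 2 ΔLTreg calls went down to 0 when either control mouse was left out, and to 1 when any other library but ΔLTreg mouse 3 was.

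Many leukocyte markers rose in ΔTreg skin. There 8 of 8 T cell markers, 6 of 6 NK and cytotoxic markers and 4 of 8 monocyte and macrophage markers (Itgam, Mrc1, Adgre1 and Cd68) rose against control. The share called higher over all genes was 12.1%. Cd8a had 0 to 3 counts in the 8 other libraries and 238, 236 and 296 counts in ΔTreg mice, and Gzmb, which encodes granzyme B, had 0 to 4 and 593, 901 and 820 counts. Summed T cell markers were at 16.4 to 18.5 CPM in control, 15.5 to 17.6 in ΔETreg, 18.2 to 20.8 in ΔLTreg and 55.4 to 71.4 CPM in ΔTreg mice. Summed NK and cytotoxic markers were at 3.47 and 3.51 CPM in control, 2.58 to 3.25 in ΔETreg, 4.35 to 6.35 in ΔLTreg and 45.0 to 48.1 CPM in ΔTreg mice, so that each ΔLTreg mouse was above control for this sum as for the IRG sum. In ΔLTreg skin none of the T cell, cytotoxic, or monocyte and macrophage markers passed by edgeR (1, 3 and 1 had an unadjusted p under 0.05), and Ptprc, the gene of the pan-leukocyte marker CD45, had a log2 fold change of 0.20 (SE 0.239, edgeR adjusted p = 0.713), against 1.91 (SE 0.243) in ΔTreg skin. Ptprc was at -0.19 (SE 0.241) in ΔETreg skin, and monocyte and macrophage markers there had a median of -0.31. Of the other lists, the 4 neutrophil markers that passed the filter all rose in ΔTreg skin and 1 (S100a9) rose in ΔLTreg skin, 2 of 5 dendritic cell markers (Ccr7 and Itgax) rose in ΔTreg skin, and neither of the 2 B cell markers that passed the filter was called (0 also at an unadjusted p under 0.05). The dermal fibroblast markers fell in part, 3 of 5 (Col1a1, Col1a2 and Lum) in ΔTreg and 1 of 5 (Pdgfra) in ΔLTreg skin. Over all 18375 genes, 3946 were called in ΔTreg skin in either direction, 2220 of them higher. In ΔLTreg skin 836 were called, 341 of them higher. Of 4 endothelial markers, Pecam1 rose in both of these groups, and Cdh5 and Kdr fell in ΔTreg skin.

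In control and ΔLTreg skin, several leukocyte markers, among them Ly6c2 and Fcgr1, varied with the members from mouse to mouse. Ly6c2, a marker of inflammatory monocytes, was read 71 and 3 times in control skin and 49, 117 and 6 times in ΔLTreg mice 1 to 3, the same order as the summed IRG level within these 2 groups. The orders differed in ΔTreg mice, with 280, 225 and 288 counts of Ly6c2 (CPM highest in mouse 1 and lowest in mouse 2) while the IRG sum was lowest in mouse 3, and in ΔETreg mice, where Ly6c2 was highest in mouse 2, the mouse with the lowest IRG sum. Fcgr1, an Fc receptor gene that interferon-γ also induces, had 171 and 56 counts in control and 136, 244 and 35 counts in ΔLTreg mice. In ΔETreg mice, Ly6c2 had 4, 8 and 4 counts and Fcgr1 had 51, 52 and 38, no more than in control mouse 2 for Fcgr1, while the summed IRG level was above that of both control mice. In control and ΔLTreg mice, the monocyte and macrophage sum held the order of the IRG sum too (208 and 153, then 135, 208 and 86.8 CPM). So did Ptprc (13.9 and 10.9, then 14.4, 18.8 and 9.64 CPM). The dendritic cell sum (6.09 and 4.90, then 6.08, 6.27 and 4.73 CPM) and the dermal fibroblast sum (14900 and 13000, then 11800, 13400 and 6200 CPM) held it as well. The T cell, NK and cytotoxic, and neutrophil sums did not, as each was higher in control mouse 2. For the NK and cytotoxic sum that control difference was small (3.47 and 3.51 CPM), and it held the order in ΔLTreg mice (5.99, 6.35 and 4.35 CPM). The skeletal muscle sum ran in the reverse order in both groups (987 and 1060, then 2830, 1140 and 3700 CPM). With so few mice an order is easily shared, and how many of all genes held it was not counted. The part of these cells in the IRG values was not tested.

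**Figure D5:**
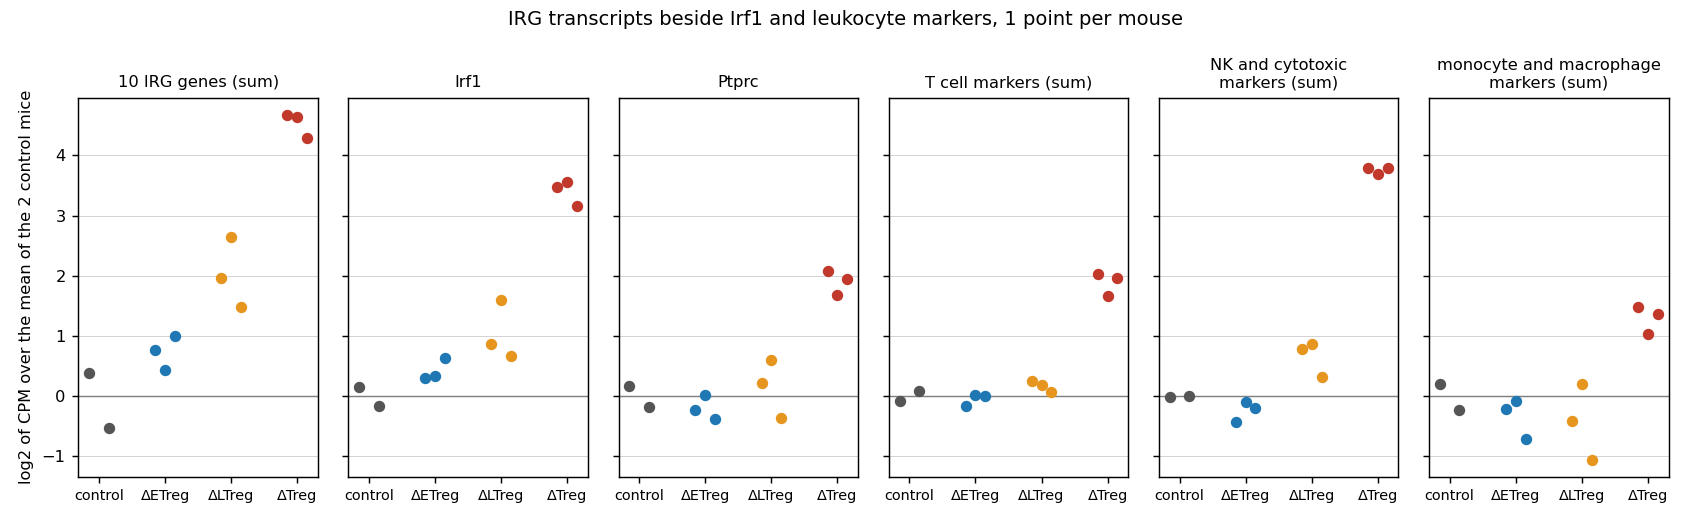
Log2 ratio to the mean of the 2 control mice (y axis) in each mouse, by group (x axis), for the sum of the 10 IRG genes, Irf1, the gene of an interferon-induced transcription factor, the pan-leukocyte marker Ptprc and the sums of T cell, of NK and cytotoxic, and of monocyte and macrophage markers. The 3 ΔLTreg mice, at 111, 178 and 80.0 CPM for the IRG sum, are all above control in the first panel, as are their NK and cytotoxic sums (4.35 to 6.35 CPM against 3.47 and 3.51 CPM), while their T cell sums of 18.2 to 20.8 CPM overlap the control range of 16.4 to 18.5 CPM.

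The genes outside the family whose pattern over the 11 libraries was most like the members' mean pattern were all guanylate-binding proteins, another group of interferon-inducible GTPases. Pearson's r on log2 CPM was 0.997 for Gbp7, 0.992 for Gbp9, 0.991 for Gbp10, 0.990 for Gbp5 and 0.990 for Gbp6. Gbp7 averaged 8.11 CPM in control, 11.4 in ΔETreg, 21.7 in ΔLTreg and 86.3 CPM in ΔTreg skin, and Gbp5 averaged 1.80, 3.10, 9.78 and 61.4 CPM. Of the 18365 other genes tested, 620 (3.38%) had an r over 0.9, so a high r was not rare in these libraries, which differ chiefly by group.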

How the data were processed

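Whole-skin bulk RNA-seq libraries of 11 mice, whose titles share 1 prefix, were analysed. After trimming (Trimmomatic 0.36) and alignment to GRCm38 (STAR 2.5.2b), the authors deposited raw counts of uniquely assigned exonic reads per gene from featureCounts (Subread 1.5.2). Annotation release and strand setting are not given in the sources used here. Groups came from the treatment labels. All counts were fitted together with edgeR 4.0.16 in R 4.3.3 (4 group means, TMM scaling, filterByExpr by group, quasi-likelihood F test, Benjamini-Hochberg adjustment over 18375 genes, threshold 0.05), and scripts were tested on simulated data. Library totals of 23377571 to 34159435 leave genes under about 10 counts imprecise, and 3 counts served as the floor. Ratios of summed counts carry exact (Clopper-Pearson) intervals, conditional on the total, added after the values were seen. Replicate libraries differed by more than counting error (median chi-square of 1.09 to 3.47 per pair, against 0.455). The members and lists were chosen with earlier results of these data known, and 1 gene of the interferon-γ pathway list is not reported here. Genes named besides the members were, in each list, those with the smallest p in ΔTreg or ΔETreg against control, central interferon-γ pathway genes, genes between members, and the 5 most alike in pattern; Foxp3 and the genes singled out in counts were added after values were seen. Where a symbol had 2 rows, the row with more counts was used. Alternatives were DESeq2 1.42.0, its size factors, no TMM factor, other filters, fits of the compared groups only, Tgtp1 and Tgtp2 summed, and each library left out. Positions, exon lengths and shared sequence came from GENCODE, and promoters from RefSeq.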

Additional observations from a re-analysis of the deposited data

Results flagged for a closer look

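The difference between the depletion windows was tested directly, without the control mice, and 8 members differed between ΔETreg and ΔLTreg skin by edgeR's quasi-likelihood test. The log2 difference, ΔETreg minus ΔLTreg, was -1.16 for Irgm1, -1.34 for Irgm2, -1.45 for Igtp, -1.30 for Iigp1, -1.40 for Ifi47, -1.10 for Tgtp1, -1.25 for Tgtp2 and -4.80 for Gm4841. Of all genes tested, 3.12% were called lower in ΔETreg than in ΔLTreg skin. Most of the 8 calls were lost when any of the ΔETreg mice was left out, and fewer of all genes were then called as well. The groups were harvested on P9 and P13, so treatment window and age cannot be told apart.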

How the results depend on the processing

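All 3 comparisons of ΔTreg skin kept their direction and call, though against control not the size, for each member under each setting that could test it, with counts of 6 where at least 10 counts were required in every library, because only 6 members were then tested. Under that filter 5 members were called in ΔLTreg against control and 5 in ΔETreg against ΔLTreg. With only the compared libraries fitted, 2 were called in each of these comparisons. Leaving out 1 library gave 3 to 9 calls in ΔLTreg against control and 1 to 9 in ΔETreg against ΔLTreg. In ΔETreg against control, DESeq2 called 2 members and edgeR without a filter 3, among 8 and 54 genes called in all, and leaving out 1 library called 0. The log2 fold changes of the members that turned sign there ranged from -0.177 to 0.57 (Irgm1), -0.067 to 0.77 (Irgm2), -0.046 to 1.02 (Ifi47), -0.068 to 2.01 (Gm4951) and -0.056 to 1.13 (Gm12250). Scaling moved the median of all genes by less than 0.1. Low counts limit Gm4841, Gm4951 and Gm12250 in control and ΔETreg skin. They also limit Tgtp1 (18 and 8 reads) and Tgtp2 (24 and 9 reads) in control skin, and so their folds and shares against control. No paired analysis was possible because the labels carry no replicate numbers. Tgtp1 and Tgtp2 summed gave the same calls as apart.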
